A study of Mus musculus with 12 samples.

Results

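The urea cycle was followed here through 9 genes, chosen by symbol from what is known of the pathway: Cps1, Otc, Ass1, Asl and Arg1 for the 5 enzymes, Arg2 for the second arginase, Nags for the enzyme that makes the activator of CPS1, and Slc25a13 and Slc25a15 for the mitochondrial carriers. All 9 were among the 24537 genes of the liver RNA-Seq table. Of them, 8 were among the 10593 genes that reached at least 1 FPKM (fragments per kilobase of exon, scaled to the mapped reads of the library) in at least 3 libraries and were therefore tested, and Arg2 was not.

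The livers came from male C57Bl/6J mice, 6 weeks old at the start and housed singly, that either ate the NIH41 diet ad libitum (Con) or received a fortified NIH41 diet at 30% less than the Con intake (CR), given once a day at midday. Livers were taken at day 25 and day 30, with 3 Con and 3 CR mice at each day, and the study asks what happens in the liver between these days under CR. All mice, Con included, received heavy water in the last days, and the diets differed in formula and in feeding schedule as well as in amount, so these cannot be told apart. The time between the last meal and tissue collection is not given in the sources used here.

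The urea cycle disposes of nitrogen from amino acid breakdown and runs mainly in periportal hepatocytes, the liver cells nearest the incoming blood. CPS1 and OTC work inside the mitochondrion, where ammonia and bicarbonate become carbamoyl phosphate and then citrulline, while ASS1, ASL and ARG1 work in the cytosol, where citrulline takes up aspartate and is turned through argininosuccinate and arginine into urea and ornithine. Arginine is also the substrate of the nitric oxide synthases, and ASS1 and ASL can remake it from the citrulline those enzymes release. In liver the amounts of the cycle enzymes are known to follow protein intake, glucagon and glucocorticoids.

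Depth ranged from 15753198 to 23345501 reads per library, with 78.1% to 84.25% of reads on exons, and libraries of one group correlated at a Pearson r of 0.9838 to 0.9894 across genes. Defining hepatocyte transcripts were abundant in all livers, with 6 genes (Alb among them) summing to 39735 to 64720 FPKM. Markers of other cells were much lower on the same summed scale, at 23.2 to 59.8 FPKM for 6 Kupffer cell genes, 31.8 to 49.4 FPKM for 6 endothelial genes, 46.1 to 79.8 FPKM for 6 stellate and fibroblast genes, 7.57 to 17.8 FPKM for 5 cholangiocyte genes, 0.24 to 2.68 FPKM for 6 lymphocyte and neutrophil genes and 193 to 1107 FPKM for 5 erythroid genes. In whole liver RNA, fewer cells of a type and less RNA per cell cannot be told apart. Mice are named below by the column headings of the table (Con7 to Con12 and CR7 to CR12). The p-values set a mean difference against the spread between mice within groups, estimated over all 4 groups. In the comparison over both days, that spread also holds any difference of the diet effect between the days.

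Promoter sequence, the 250 bases before the transcription start, was held by the RefSeq table (GRCm38.p6) for 5 of the 9 genes, namely Otc, Ass1, Nags, Slc25a13 and Slc25a15. No entry was found for Cps1, Asl, Arg1 or Arg2. Printed here, 5′ to 3′ along the gene, are the promoters of Ass1 and Slc25a13, the genes called higher in CR mice over both days, and of Otc, whose CR livers lay inside the Con range at both days. Capitals mark matches to 7 motifs searched on both strands.
Ass1 promoter, chr2:31470020-31470269, plus strand: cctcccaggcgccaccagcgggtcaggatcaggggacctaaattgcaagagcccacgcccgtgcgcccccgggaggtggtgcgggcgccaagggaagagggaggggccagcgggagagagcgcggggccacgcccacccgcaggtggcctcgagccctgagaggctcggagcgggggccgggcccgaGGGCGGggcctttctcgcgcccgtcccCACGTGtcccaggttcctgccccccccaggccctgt
Slc25a13 promoter, chr6:6217174-6217423, minus strand: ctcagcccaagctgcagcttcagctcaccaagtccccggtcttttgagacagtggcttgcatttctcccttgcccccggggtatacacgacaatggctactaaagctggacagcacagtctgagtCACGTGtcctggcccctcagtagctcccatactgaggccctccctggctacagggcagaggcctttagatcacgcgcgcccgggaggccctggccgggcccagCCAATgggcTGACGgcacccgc
Otc promoter, chrX:10252055-10252304, plus strand: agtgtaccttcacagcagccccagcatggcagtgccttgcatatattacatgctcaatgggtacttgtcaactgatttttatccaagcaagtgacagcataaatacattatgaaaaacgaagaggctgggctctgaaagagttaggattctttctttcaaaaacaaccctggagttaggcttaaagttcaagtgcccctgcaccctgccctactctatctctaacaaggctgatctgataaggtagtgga

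The E-box CACGTG, the letters bound by basic helix-loop-helix factors, was found in the Ass1 promoter at -36 to -31 from the start, in the Slc25a13 promoter at -125 to -120, and at 1 of the 2 annotated starts of Slc25a15, at -77 to -72. It is present in 6.02% of all 32851 promoters of this length. The GC box GGGCGG, present in 32.7% of all promoters, stood in Ass1 at -63 to -58, in Nags and at both starts of Slc25a15. Slc25a13 also held the CCAAT box (CCAAT, 33.8% of all promoters) at -22 to -18 and the cAMP response element core TGACG (17.8%) at -13 to -9. None of the 6 promoters held TATAAA (12.4% of all promoters), the forkhead core TGTTTAC (3.17%) or the glucocorticoid receptor half-site TGTTCT (16.1%), and the Otc window held no match to any of the 7 motifs. The GC content was 75.6% in Ass1, 62.8% in Slc25a13 and 43.6% in Otc, against a median of 52.4% over all promoters. These matches describe letters in the window and show no binding.

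On the FPKM scale, which is per exon length, Cps1, Arg1, Ass1 and Asl stood well above the other members, and Otc followed them. Mean FPKM over the 12 livers was 1007 for Cps1, 1004 for Arg1, 866 for Ass1, 579 for Asl and 151 for Otc, which placed the first 4 of these at ranks 52, 53, 63 and 93 of all 24537 genes and Otc at rank 349. Slc25a15 followed at 92.4 FPKM, Slc25a13 at 87.6, Nags at 27.4 and Arg2 at 0.628. Neighbours in that order were not always apart. Cps1 was above Arg1 in 6 of 12 livers and Slc25a15 above Slc25a13 in 8. Arg1 was above Ass1 in 9, all but CR9, CR10 and CR12. The order of these pairs varied between livers, and their differences were not tested. Ass1 was above Asl, Asl above Otc, Slc25a13 above Nags and Nags above Arg2 in all 12, and Otc above Slc25a15 in 11. The mitochondrial pair was thus uneven, with the ratio of Cps1 to Otc between 4.18 and 9.23 in single livers. Reads on the 5 enzymes made up 1.20% ± 0.12 (SD, n = 3) of all exon reads in Con mice and 1.24% ± 0.19 in CR mice at day 25, and 1.01% ± 0.21 and 1.31% ± 0.08 at day 30. In single livers this share ranged from 0.83% (Con11) to 1.44% (CR9), and the diets overlapped at both days.

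**Figure D1:**
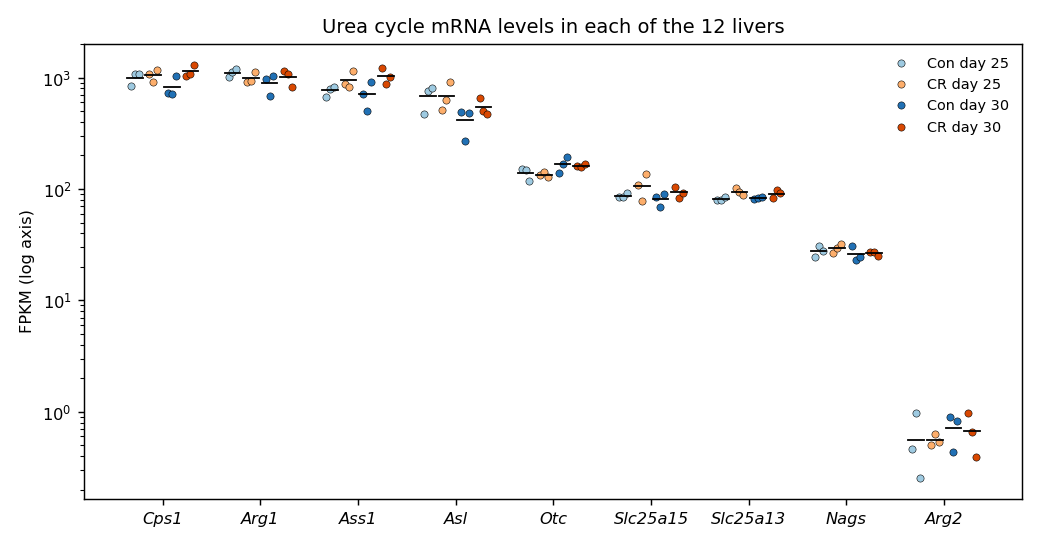
FPKM (log axis) of the 9 urea cycle genes in each of the 12 livers, ordered by mean level, with 1 point per mouse, colour for diet and day, and a bar for the group mean. Levels span from 0.253 FPKM (Arg2) to 1307 FPKM (Cps1). The groups of one gene lie close together beside that whole span, but neighbouring genes such as Cps1 and Arg1 overlap.

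At day 25, CR and Con livers held urea cycle transcripts at levels that limma did not separate. With Benjamini-Hochberg adjustment over all 10593 genes, 0 of the 8 tested members were called at an adjusted p under 0.1, against 14.9% of all genes tested (5.6% higher). Only Slc25a13 had an unadjusted p under 0.05, and voom on reads recovered from the FPKM also called 0. At day 30, Cps1 and Ass1, the first enzyme of the cycle and the enzyme that brings in aspartate, were higher in CR mice, which makes 2 of 8 members called against 24.7% of all genes (8.33% higher and 16.4% lower). Over both days, with day as a covariate, Ass1 and Slc25a13, the mitochondrial exporter of aspartate, were called higher, 2 of 8 against 40.6% of all genes, of which 14.5% were higher and 26.1% lower. At day 30 and over both days the members' count of 2 of 8 was therefore close to or below the share of all genes called in either direction. No member was called lower in any comparison.

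The median log2 fold change of the 8 members was 0.09 at day 25, 0.19 at day 30 and 0.19 over both days, beside -0.04, -0.07 and -0.05 over all genes tested. The split of calls over all genes turned on the scaling. Of all calls, 37.5% were higher at day 25 and 33.7% at day 30, against 50.0% and 51.3% with median ratio scaling and 47.8% and 50.7% with quantile normalization. At the cutoff of the study, under which a called gene must also differ by 1 or more on the log2 scale, 0 members passed at either day or over both days, where 1.48% of all genes passed at day 25, 2.21% at day 30 and 1.66% over both days. At day 25 the 95% intervals of all 8 members lay inside a log2 fold change of 1 in either direction, so a doubling or halving of any of them was outside the interval. At day 30 this held for 6 of 8, the exceptions being Ass1 and Asl, whose intervals reached 1.03 and 1.04.

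**Figure D2:**
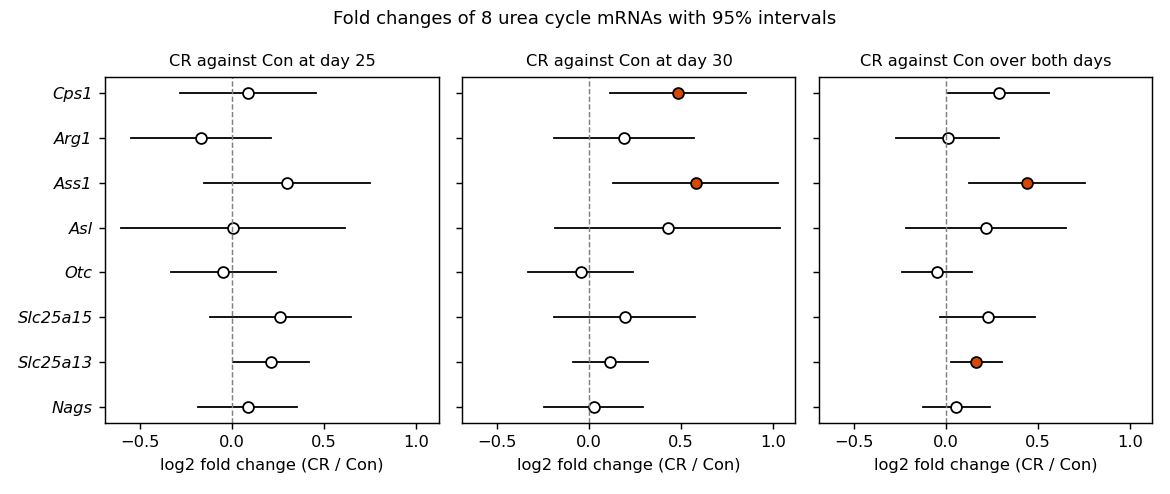
Log2 fold change of CR over Con (points) with the 95% interval (lines) for the 8 tested members at day 25, at day 30 and over both days, from limma on log2(FPKM + 1). Filled points mark members called at an adjusted p under 0.1, which are none at day 25, Cps1 and Ass1 at day 30, and Ass1 and Slc25a13 over both days.

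Cps1 (NM_001080809, mm10 chromosome 1, 67123027 to 67231267, plus strand) encodes carbamoyl phosphate synthetase I, the rate-setting entry of ammonia into the cycle. At day 25 it stood at 848, 1072 and 1081 FPKM in Con7, Con8 and Con9 and at 1087, 918 and 1181 FPKM in CR7, CR8 and CR9. CR8 fell inside the Con range, so the groups overlapped, and the log2 fold change of 0.09 (95% interval -0.28 to 0.46) was not called. At day 30 the Con livers had 731 FPKM in Con10, 705 in Con11 and 1038 in Con12, and the CR livers had 1040, 1079 and 1307 in CR10, CR11 and CR12. Each CR liver was above each Con liver, although CR10 exceeded Con12 by a narrow margin, and Cps1 was the only member whose groups did not overlap at day 30, where 12.1% of all genes were higher without overlap. The log2 fold change was 0.48 ± 0.17 (SE, n = 3 and 3), a limma adjusted p of 0.0705 after Benjamini-Hochberg adjustment, with a 95% interval from 0.12 to 0.85. The call was lost without Con10, Con11, CR10, CR11 or CR12, each left out alone (log2 fold changes of 0.38 to 0.55, limma adjusted p of 0.101 to 0.209), with no filter (0.145), with TPM scaling (0.101) and with only the day 30 groups in the fit (0.1). Over both days the log2 fold change was 0.29, with a limma adjusted p of 0.104, and the gene was called without Con8, Con9, CR8 or Con12 (0.33 to 0.35, adjusted p of 0.0516 to 0.0783) and under 4 processing alternatives. These were quantile normalization (adjusted p of 0.0397), median ratio scaling (0.0619), voom on the recovered reads (0.0889) and moderation with no trend (0.0953).

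Nags (NM_145829, chromosome 11, 102145513 to 102149528, plus strand) encodes N-acetylglutamate synthase, whose product CPS1 needs in order to work. Its level was even across livers, from 23.2 to 32.3 FPKM, a coefficient of variation of 10.6%. Con mice had 24.7, 30.9 and 27.7 FPKM at day 25 and 30.9, 23.2 and 24.3 at day 30. CR mice had 26.5, 29.6 and 32.3 FPKM at day 25 and 27.1, 27.0 and 25.2 at day 30. The groups overlapped at both days, with log2 fold changes of 0.09 (95% interval -0.18 to 0.35) and 0.02 (-0.24 to 0.29), neither called, and the sign at day 30 turned under TPM scaling. An annotated antisense gene, Gm11586, shares 17.94% of the 100-base stretches of Nags on the opposite strand. The strandedness of the libraries is not given in the sources used here, so reads within the shared stretches cannot be assigned to either gene.

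Otc (NM_008769, chromosome X, 10252305 to 10321024, plus strand) encodes ornithine transcarbamylase, which joins carbamoyl phosphate to ornithine. Con livers had 150, 150 and 119 FPKM at day 25 and 140, 169 and 195 at day 30. CR livers had 134, 141 and 128 FPKM at day 25 and 160, 158 and 166 at day 30. The CR livers lay inside the Con range at both days. The log2 fold change was -0.05 at day 25 (95% interval -0.33 to 0.24) and -0.05 at day 30 (-0.33 to 0.24), not called, and its sign turned with median ratio scaling at both days. Otc was higher at day 30 than at day 25 in each CR liver, the only member whose CR groups did not overlap between days, where 6.32% of all genes were higher without overlap. That difference of 0.26 was not called (limma adjusted p of 0.584 with Benjamini-Hochberg adjustment), and the Con mice had the same difference of 0.26 (adjusted p of 0.683).

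**Figure D3:**
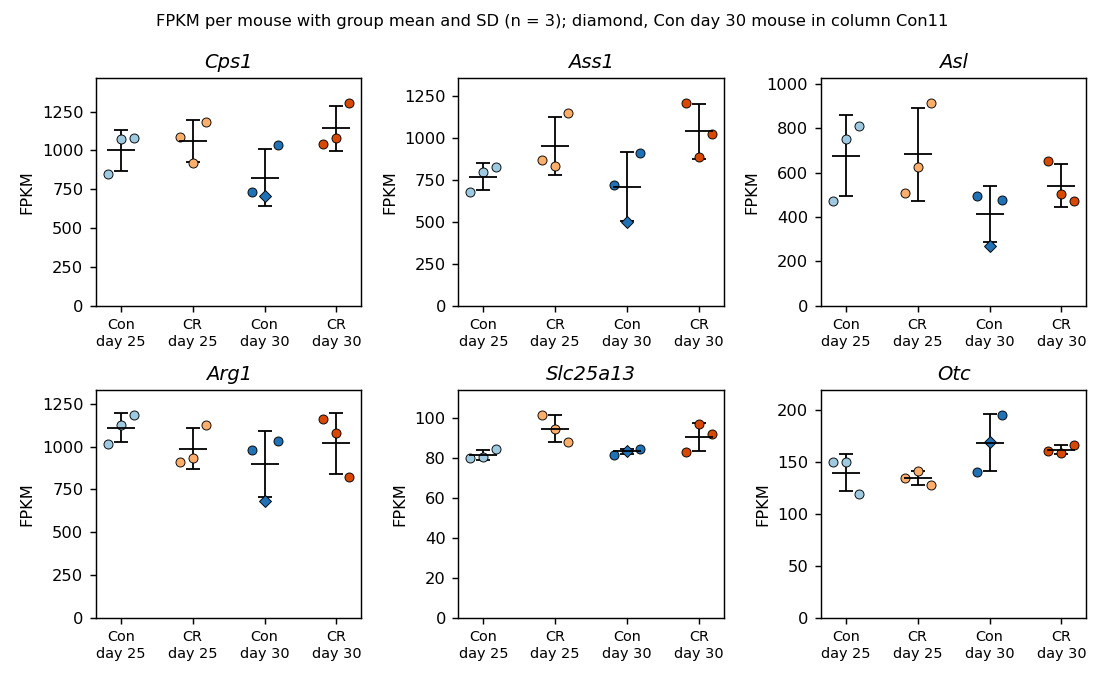
FPKM of 6 members in each mouse (points, with a diamond for Con11), with the group mean and SD (n = 3) for Con and CR at day 25 and day 30, on axes that start at 0. Cps1 is separated between diets at day 30, Ass1 and Slc25a13 at day 25, and Con11 is the lowest Con liver at day 30 for Cps1, Ass1, Asl and Arg1.

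Ass1 (NM_007494, chromosome 2, 31470270 to 31520670, plus strand) encodes argininosuccinate synthase, which joins citrulline to aspartate. At day 25 it stood at 677, 797 and 828 FPKM in the Con livers and at 869, 831 and 1149 FPKM in the CR livers. Ass1 and Slc25a13 were the 2 members higher in CR mice without overlap at day 25, where 10.2% of all genes were, but CR8 exceeded Con9 only slightly, and the log2 fold change of 0.30 (95% interval -0.15 to 0.75) was not called. At day 30 Con mice had 719 FPKM in Con10, 499 in Con11 and 909 in Con12, against 1208, 883 and 1020 in CR10, CR11 and CR12. CR11 lay below Con12, so the groups overlapped. The log2 fold change at day 30 was 0.58 ± 0.21 (SE, n = 3 and 3), or 49.4% more, with a limma adjusted p of 0.0745 (Benjamini-Hochberg), but the call was lost without Con10, Con11, CR10 or CR12 (0.35 to 0.61, adjusted p of 0.124 to 0.253, with the lowest value and the highest p without Con11), with no filter (0.149) and with only the day 30 groups (0.113). Over both days it was 0.44 ± 0.15 (SE, n = 6 and 6), with a limma adjusted p of 0.0358, and Ass1 was the member called over both days whichever mouse was left out (largest adjusted p of 0.0841) and under every other alternative except the added fold cutoff.

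Reads on Ass1 carry an ambiguity. The row of the pseudogene Gm5424 was placed in the table at the Ass1 locus itself (chromosome 2, 31470308 to 31520629), while RefSeq (GRCm38.p6) puts that gene on chromosome 10, 62071022 to 62072571. Its values, 455 FPKM in Con11 to 1040 FPKM in CR10, therefore cover the exons of Ass1 and followed it across the 12 livers with a Pearson r of 0.994. Of the 100-base stretches of Ass1, 38.95% are identical in the chromosome 10 copy, so the share of such reads assigned to either place is uncertain.

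Asl (NM_133768, chromosome 5, 130011503 to 130024331, minus strand) encodes argininosuccinate lyase, which releases arginine. It was the most variable tested member from mouse to mouse, with a coefficient of variation of 30.9% over the 12 livers. Con mice had 471, 751 and 810 FPKM at day 25 and 494, 268 and 477 at day 30. CR mice had 508, 623 and 915 FPKM at day 25 and 650, 505 and 471 at day 30. Diets overlapped at both days, with log2 fold changes of 0.01 (95% interval -0.60 to 0.61) and 0.43 (-0.18 to 1.04), not called. The first changed sign under TPM scaling and quantile normalization. In Con mice Asl differed by -0.72 between day 30 and day 25 (unadjusted p of 0.0235 in limma, adjusted p of 0.596 after Benjamini-Hochberg), which was not called. The ratio of Ass1 to Asl ranged from 1.02 in Con9 to 2.17 in CR12.

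Arg1 (NM_007482, chromosome 10, 24915207 to 24927470, minus strand) encodes the liver arginase, which releases urea and returns ornithine. At day 25 Con livers had 1018, 1124 and 1186 FPKM and CR livers 909, 931 and 1126. At day 30 Con livers had 982, 681 and 1034 FPKM and CR livers 1158, 1077 and 820. The estimate was lower in CR mice at day 25 (log2 fold change of -0.17, 95% interval -0.55 to 0.21) and higher at day 30 (0.19, -0.19 to 0.57), neither was called, and the groups overlapped at both days. Over both days the estimate was 0.01 (-0.27 to 0.29), and its sign turned under TPM scaling.

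Arg2 (NM_009705, chromosome 12, 79130788 to 79156301, plus strand) encodes the mitochondrial arginase found mainly outside the liver. It was near the limit of detection in these livers, at 0.253 to 0.975 FPKM, which corresponds to 6 to 32 reads per library, and reached 1 FPKM in 0 of 12 libraries. Con mice had 0.463, 0.967 and 0.253 FPKM at day 25 and 0.902, 0.433 and 0.82 at day 30. CR mice had 0.503, 0.632 and 0.53 FPKM at day 25 and 0.975, 0.658 and 0.396 at day 30, within the Con range except for the highest and lowest day 30 livers. A fit of all genes without the filter gave log2 fold changes of 0.02 and -0.04 at the 2 days, not called, and at this depth no difference was detectable. Its 3′ end overlaps Vti1b on the opposite strand, which holds 14.0% of its 100-base stretches and stood at 19.5 to 24.5 FPKM, so some Arg2 reads may belong to Vti1b.

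Slc25a13 (NM_001177572, chromosome 6, 6041218 to 6217173, minus strand) encodes citrin, the carrier that moves aspartate out of the mitochondrion to ASS1. Its level varied little, with a coefficient of variation of 8.10%. At day 25 Con livers had 80.1, 80.4 and 84.4 FPKM and CR livers 102, 94.5 and 88.1, with each CR liver above each Con liver. The log2 fold change was 0.21 ± 0.09 (SE, n = 3 and 3), a limma adjusted p of 0.187 with Benjamini-Hochberg adjustment, so the gene was not called at that day alone, although it was under median ratio scaling (adjusted p of 0.0847). At day 30 Con livers had 81.8, 83.7 and 84.6 FPKM and CR livers 82.9, 97.0 and 92.0, where CR10 lay inside the Con range and the log2 fold change was 0.12 (95% interval -0.09 to 0.32). Over both days 5 of 6 CR livers were above all 6 Con livers, and the log2 fold change of 0.16 ± 0.06 (SE, n = 6 and 6), or 12.0% more, was called (limma adjusted p of 0.0671). The call was lost under TPM scaling (adjusted p of 0.146), under quantile normalization (0.256) and without Con7, Con8, CR7, CR8, Con10 or CR11, each left out alone (0.14 to 0.16, adjusted p of 0.102 to 0.137).

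Slc25a15 (NM_181325, chromosome 8, 22375550 to 22398621, minus strand) encodes the carrier that exchanges ornithine and citrulline across the inner mitochondrial membrane. At day 25 Con livers had 84.4, 84.7 and 92.3 FPKM and CR livers 108, 78.3 and 135. At day 30 Con livers had 85.6, 68.7 and 91.0 FPKM and CR livers 105, 83.6 and 91.6. CR8 was the lowest liver of day 25 and CR11 lay inside the Con range of day 30, so the groups overlapped at both days. The log2 fold changes were 0.26 (95% interval -0.12 to 0.64) and 0.19 (-0.19 to 0.57), not called. Without CR8 the gene was called, at 0.47 at day 25 (limma adjusted p of 0.0838) and 0.32 over both days (0.0372), where the value with all mice was 0.23 (0.163, and 0.0999 with median ratio scaling).

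The difference between the CR effects of the 2 days was tested as an interaction, and limma called 0 of 8 members (0 at an unadjusted p under 0.05), against 0.00944% of all genes. The difference was 0.40 for Cps1 (95% interval -0.12 to 0.92), 0.42 for Asl (-0.44 to 1.28), 0.36 for Arg1 (-0.18 to 0.90) and 0.28 for Ass1 (-0.35 to 0.91), and lay between -0.09 and 0.00 for Otc, Nags and the carriers. Between the days, limma called 0 of 8 members in CR mice (0 at an unadjusted p under 0.05, background 0.321%) and 0 of 8 in Con mice (1 at an unadjusted p under 0.05, background 0.0%). For Cps1 the day 30 minus day 25 difference was 0.11 in CR mice and -0.29 in Con mice, for Arg1 0.03 and -0.32, and for Asl -0.30 and -0.72. These comparisons share the Con mice of day 30 with the diet comparison at that day, and the Con groups of the days were not shown to differ.

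Single mice stood low or high for several members at once. Con11 was the lowest Con liver of day 30 for 7 of the 9 members, at -29.6% from the group mean for Ass1, and was the highest for none. Con7 was the lowest Con liver of day 25 for 7 of the 9, all but Otc and Arg2, while Con9 and Con12 were the highest of their groups for 6 each. Among CR mice, CR9 at day 25 and CR10 at day 30 were the highest for 6 of the 9 each. The summed FPKM of the 9 genes ranged from 2498 in Con11 to 4754 in CR9. The summed FPKM of the 6 hepatocyte markers was 39735 to 48074 in Con and 54438 to 64720 in CR livers at day 30, without overlap. Alb made up the largest part of this sum, with a mean of 29732 FPKM in Con and 46413 in CR livers and a log2 fold change of 0.64 (limma adjusted p of 0.00791), while 1 gene was called lower (Cyp3a11, -0.67), 4 were not called and the list median was 0.13. Periportal markers (7 genes) summed to 2584 to 2910 FPKM in Con and 3152 to 4491 in CR livers at day 30, with 2 genes called higher (Sds and Pck1), 5 not called and a list median of 0.04. Pck1 carried the difference between these sums, with a mean of 1153 FPKM in Con and 2366 in CR livers. Over all genes, 8.33% were called higher and 16.4% lower at day 30. At day 25 the periportal sums overlapped (Sds higher, Hal lower). Their part in the Cps1 and Ass1 differences was not tested.

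Pericentral markers (8 genes, from the far end of the lobule) summed to 5292 to 5635 FPKM in Con and 6786 to 7999 in CR livers at day 25. Of them, 4 were called higher (Cyp2e1, Cyp1a2, Slc1a2 and Lect2) and 4 were not called (Glul, Oat, Rhbg and Axin2), with a list median of 0.36. Cyp2e1 made up the largest part of the sum, with a mean of 4629 FPKM in Con and 6453 in CR livers. Mean Axin2 was 2.22 FPKM in Con and 1.70 in CR livers. At day 30 the sums overlapped (4438 to 5453 FPKM in Con and 5189 to 6932 in CR livers). There 1 gene (Lect2) was called higher and 7 were not called, with a list median of 0.03. Calls over all genes came to 14.9% at day 25 (5.6% higher) and 24.7% at day 30 (8.33% higher, 16.4% lower). Of the other marker lists, Kupffer cell genes had 3 of 6 called lower at day 25 (Clec4f, Vsig4 and Cd5l) and 1 higher at day 30 (Marco). Endothelial genes had 1 (Stab2) and then 2 (Stab2 and Clec4g) of 6 higher, stellate and fibroblast genes 1 (Reln) and then 2 (Reln and Dcn) of 5 higher, cholangiocyte genes 0 of 2 at either day, and erythroid genes 1 of 5 lower (Alas2) at each day. Marker genes are named here after their values were seen. Calls of genes that stand only in the marker lists were not checked by leaving out mice or changing the processing. Sds and Slc1a2 are counted again in lists below, where the losses of their day 25 calls are given. None of the 6 lymphocyte and neutrophil genes passed the filter. No marker of any list was at 0 in all libraries.

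Among the genes listed for nitrogen entry into the cycle, Got1 had the largest diet differences, followed at day 30 by Gpt. The list also holds Glul and Car5a, which do not themselves feed nitrogen into the cycle. Of the 8 tested genes of this list, 2 were higher in CR mice at day 25 and 3 at day 30, and 0 were lower. The median log2 fold changes were 0.26 and 0.28. Over all genes tested, 5.6% were called higher at day 25 and 8.33% at day 30. Got1, the cytosolic aspartate aminotransferase, stood at 148, 169 and 205 FPKM in Con and 358, 321 and 551 in CR livers at day 25, and at 103, 63.4 and 131 in Con and 421, 238 and 299 in CR livers at day 30. Its groups did not overlap at either day, with log2 fold changes of 1.20 and 1.70 (limma adjusted p of 0.0202 and 0.00216 with Benjamini-Hochberg adjustment). Glud1, which releases ammonia from glutamate, was higher by 0.31 and 0.32 (adjusted p of 0.0837 and 0.0583), and Gpt, the alanine aminotransferase, by 0.49 at day 30 (adjusted p of 0.0766). The Glud1 call was lost without Con7, Con8, Con9, CR7, CR9 or Con12 at day 25 (adjusted p up to 0.247) and without Con11, Con12, CR11 or CR12 at day 30 (up to 0.163), and the Gpt call without Con11, CR10 or CR11 (up to 0.25). Processing also ended these calls, for Glud1 under TPM scaling at day 25 and under quantile normalization and a fit of only the compared groups at both days (adjusted p up to 0.344 and 0.158), and for Gpt with no filter (0.13). Glul, the glutamine synthetase of pericentral hepatocytes, had values of 0.24 and 0.04, not called.

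**Figure D4:**
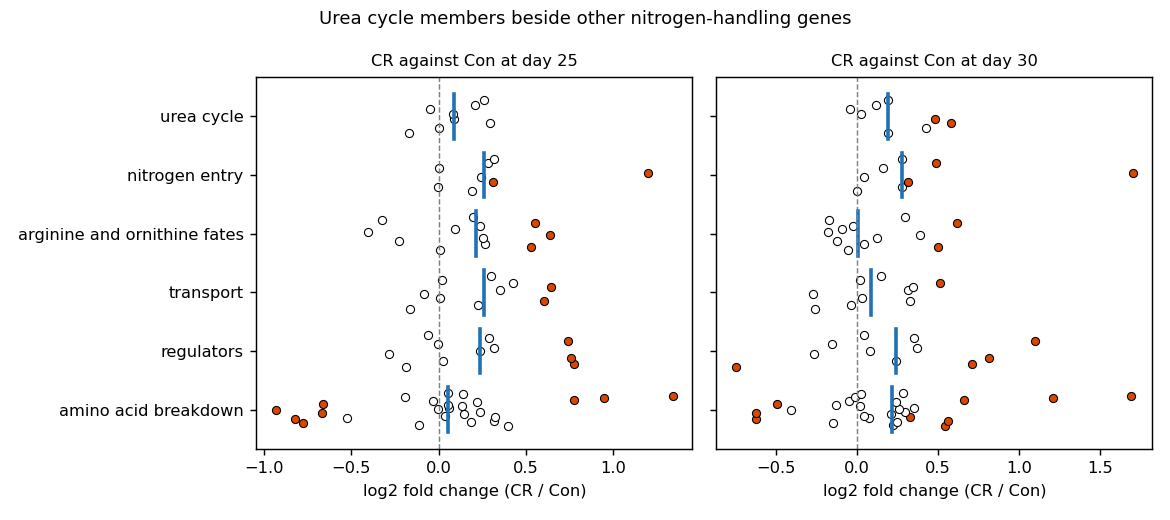
Log2 fold change of CR over Con at day 25 and day 30 for the tested genes of the urea cycle and of 5 other nitrogen-handling lists, 1 point per gene, filled where called at an adjusted p under 0.1, with a blue bar for the list median. The urea cycle points stay between -0.17 and 0.58, while Got1 and Tat reach 1.70 and 1.69 at day 30.

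Other fates of arginine and ornithine were tested through 12 of 18 listed genes, of which 3 were higher at day 25, 2 at day 30 and 0 lower at either day. The share of all genes called higher was 5.6% at day 25 and 8.33% at day 30. Prodh and Aldh4a1, which break proline down to glutamate, were higher by 0.55 and 0.53 at day 25 and by 0.62 and 0.50 at day 30 (limma adjusted p of 0.0822, 0.0204, 0.0381 and 0.0183), where the Prodh call was lost without Con7, Con9, CR11 or any day 25 CR mouse at day 25 (adjusted p up to 0.233) and without Con11 or CR10 at day 30 (up to 0.134). The day 25 call of Prodh was also lost with no filter and under quantile normalization (up to 0.143). Gamt, which makes creatine from an arginine-derived precursor, was higher by 0.64 at day 25 (adjusted p of 0.0964), a call lost without any one mouse other than CR9 and Con11 (up to 0.268), and with no filter, quantile normalization or only the compared groups (up to 0.173). Oat, which turns ornithine into glutamate, had values of 0.09 and -0.09, not called. The nitric oxide synthases failed the filter, with Nos1 at 0 to 0.009 FPKM, Nos2 at 0 to 0.047 FPKM and Nos3, the endothelial enzyme, at 0.438 to 0.862 FPKM. Arg1, which uses the same substrate, was at 681 FPKM or more in each liver.

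Among carriers and channels for amino acids of the cycle, ammonium and urea, 10 of 13 genes were tested, with 2 higher at day 25, 1 at day 30 and 0 lower. Background shares of all genes called higher were 5.6% at day 25 and 8.33% at day 30. Slc38a2 and Slc1a2, importers of neutral amino acids and of glutamate, were higher by 0.64 and 0.61 at day 25 (limma adjusted p of 0.0159 and 0.0385), and Slc38a3, a glutamine carrier, by 0.51 at day 30 (adjusted p of 0.0515). The Slc1a2 call was lost without Con7 or CR9 (up to 0.137) and that of Slc38a3 without Con11 or CR10 (up to 0.18) and with no filter (0.102). Of 11 regulators known to act on urea cycle genes or enzymes, 3 were higher at day 25, and 3 were higher and 1 lower at day 30. The same background holds for them, with 16.4% of all genes called lower at day 30. Ppargc1a, a coactivator of the fasting response, was higher by 0.74 and 1.10 (adjusted p of 0.0772 and 0.00998, the first lost without CR7, CR9 or any day 25 Con mouse, up to 0.218, and with no filter, 0.158). Also higher were Foxo1, a factor that insulin holds in check, by 0.76 and 0.82 (0.00639 and 0.00249), and Cebpb by 0.78 and 0.71 (0.0109 and 0.0104). Cebpa, a factor of the same family that is known to bind urea cycle promoters, fell by 0.75 on the log2 scale at day 30 (adjusted p of 0.00559), with 139, 141 and 189 FPKM in Con and 80.9, 90.2 and 106 in CR livers from lowest to highest.

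Amino acid breakdown, the source of the nitrogen, was tested through all 26 listed genes, with 3 higher and 5 lower at day 25 and 6 higher and 3 lower at day 30. Calls over all genes came to 14.9% at day 25 (5.6% higher) and 24.7% at day 30 (8.33% higher, 16.4% lower). Tat, which starts tyrosine breakdown, was higher by 1.34 and 1.69 (limma adjusted p of 0.0149 and 0.00287), and Sds, which deaminates serine, by 0.95 and 1.21 (0.0492 and 0.0112). Cbs, the first enzyme of transsulfuration, fell by 0.83 and 0.62 on the log2 scale (0.00148 and 0.00344). The Sds call at day 25 was lost without Con7, CR8 or CR9 (up to 0.169) and with no filter (0.108). Also called, and named after their values were seen, were Hal, Amdhd1, Kynu and Gldc as lower at day 25, Kynu and Gldc as lower at day 30, and Bckdhb, Aass and Fah as higher at day 30. Of these, Gldc at both days, and Fah, Aass and Kynu at day 30, lost the call without at least 1 mouse (adjusted p up to 0.242). Gldc also lost it with no filter and median ratio scaling at both days and with quantile normalization at day 30 (up to 0.14), and Fah with no filter and with only the compared groups (up to 0.107). The directions in this list were therefore mixed, and its median log2 fold changes were 0.06 and 0.21, beside 0.09 and 0.19 for the urea cycle. Medians of the other lists were 0.22 and 0.01 for the fates of arginine and ornithine, 0.26 and 0.09 for transport, and 0.24 and 0.24 for the regulators.

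Each tested member was also set beside 3805 genes with a mean of at least 10 FPKM by the Pearson correlation of log2(FPKM + 1) over the 12 livers, given as a description, since all genes share these libraries. The nearest patterns were those of Fam134b (r of 0.868) and Per1 (0.863) for Cps1, Ilvbl (0.958) and Mgat1 (0.921) for Nags, and Anxa4 (0.832) and Cpb2 (0.82) for Otc. For Ass1, beside Gm5424, the nearest was Sult1a1 (0.955), for Asl they were Mat1a (0.937) and Grn (0.928), and for Arg1 Gckr (0.863) and Tm6sf2 (0.851). Slc25a13 was most like Enpp2 (0.943) and Ak3 (0.901), and Slc25a15 most like Sorbs3 (0.844) and Serinc3 (0.825). Other members were left out of this search.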

How the data were processed

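Liver RNA-Seq of 12 mice was used, 3 per diet and day. Libraries were read as paired ends on a single lane, and the submitters' processing notes name CASAVA 1.8.2, FastQC, BWA, DESeq2 and the mm10 build. The authors deposited FPKM values, which the table's header records as HOMER counts on exons with 1 transcript per gene. FPKM are not counts, so limma 3.58.1 (R 4.3.3) on log2(FPKM + 1) was the main test in place of the DESeq2 that the methods name. A fold change on this scale understates the change of low genes.

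Genes with at least 1 FPKM in at least 3 libraries entered 1 model of the 4 groups with a trend, and a model of diet with day as a covariate gave the comparison over both days. Benjamini-Hochberg adjustment ran over all genes and calls were made at an adjusted p under 0.1, 2-sided. Depth was inferred from the size of the steps between low values, where 100.0% of 1500 values per library were whole reads within 0.1. Depth limits Arg2 most. The model was tested on simulated data.

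The members and gene lists were chosen with earlier results of these data known, so no list is independent evidence of its direction. All members were named, with up to 4 genes per list that had the largest absolute log2 fold change at day 30 among those called at either day, the synthases, Got1, Glul and Oat, and the 2 genes most alike to each member. The values of 1 gene that this rule names are not reported here. Alternatives changed the pseudocount, filter, scaling, moderation, samples and threshold. Of 7 hepatocyte markers, 6 were in the table as analysed here.

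Replicate numbers come from the labels at day 25 and in CR mice. At day 25 the deviations of same-numbered Con and CR mice correlated at 0.368, 0.306 and 0.106. Con and CR mice of different numbers correlated at -0.287 to 0.013 at that day, below each same-numbered value. Between the CR groups of the 2 days, mice of different numbers reached 0.335. The labels name no pairs, so pairing was not established, and a block shared by same-numbered mice at day 25 remains possible. The blocked fit was kept as an alternative. The labels give the Con samples of day 30 a shared description that matches no column heading. Their columns, Con10 to Con12, were assigned to that group by their headings and carry no replicate number. Each comparison that uses Con mice of day 30 rests on this. Promoters came from RefSeq (GRCm38.p6) and overlaps between transcripts from GENCODE M21, using stretches of 100 bases. Other computations used pandas 2.3.3 and numpy 2.4.6 in Python 3.11.15, and plots matplotlib 3.10.9.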

Additional observations from a re-analysis of the deposited data

Results flagged for a closer look

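In Con mice over both days, 1 value stood apart from the others of its group of 6. Slc25a15 was at 68.7 FPKM in Con11, and the gap to the next mouse was 0.667 of the whole range of the group. Of 18 groups of 6 mice tested in this way (9 members in Con and in CR mice over both days), 1 had such a value, and chance gives about 1 in 20.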

How the results depend on the processing

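Of 960 member values under the alternatives, 887 kept their direction and side of the threshold, 22 lost and 12 gained a call, and 39 changed sign. None of those that changed sign was called, and the causes were not tested. At day 25 the count of 0 called members became 1 under median ratio scaling and 0 to 1 when single mice were left out. At day 30 the count of 2 became 0 with no filter, 0 with only the 2 groups compared, 1 with TPM scaling, 0 with the fold cutoff, 0 at an adjusted p under 0.05 and 0 to 2 without single mice. Over both days the count of 2 became 1 with TPM scaling, 4 with median ratio scaling, 0 with the fold cutoff, 1 at an adjusted p under 0.05, 3 with voom and 3 with no trend (Cps1 added), and 1 to 3 without single mice, and under quantile normalization it stayed 2 with Cps1 in place of Slc25a13. Log2 fold changes that turned were, under median ratio scaling, Otc at day 25 (0.0019), at day 30 (0.0353) and over both days (0.0186), under TPM scaling, Asl at day 25 (-0.0125), Nags at day 30 (-0.0081), Otc between the effects (-0.0147) and Arg1 over both days (-0.0165), and under quantile normalization Asl at day 25 (-0.0506). Without single mice the values that turned ranged as follows: at day 25, Cps1 from -0.0275 to 0.1884, Otc from -0.1561 to 0.0092 and Asl from -0.2366 to 0.1960. At day 30 they were Otc from -0.1683 to 0.0682 and Nags from -0.0537 to 0.1475. For the difference of the effects they were Otc from -0.1218 to 0.1147, Nags from -0.1387 to 0.0624 and Slc25a15 from -0.2773 to 0.1120. Between days they were, in CR mice, Arg1 from -0.0657 to 0.1829 and Slc25a15 from -0.3769 to 0.0123, and in Con mice, Ass1 from -0.3512 to 0.0808 and Slc25a15 from -0.1810 to 0.0193. Over both days they were Otc from -0.1007 to 0.0044 and Arg1 from -0.0942 to 0.0555.

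With the replicate block, 0 members were called at day 25 and 0 for CR mice across days, so it changed no call of a member, and the genes called at day 25 rose from 1582 to 2077. In CR mice the same numbers did not pair the days (correlations of -0.382, 0.299 and 0.078). No blocked fit was made at day 30. The median of all genes at day 30 was -0.11 under TPM scaling, beside -0.07. Over all alternatives the count of all genes called was 893 to 2077 at day 25 (1582 as reported), 1497 to 2860 at day 30 (2619), 0 to 5 for the difference of the effects (1), 2 to 54 between days in CR mice (34) and 0 to 22 in Con mice (0).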
